A study of Zea mays with 24 samples.

Results

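Leaves of the transgenic maize line Y7-1 were compared with leaves of its wild type Y478 while both grew under moderate drought and exogenous ABA. Ye478, an inbred line of maize, is written Y478 here. Y7-1 was made from it and carries the *ZmPMP3g* overexpression construct, in which 3 copies of a viral 35S promoter drive the cDNA of a small membrane protein. Y7-1 is 1 transgenic line of the T4 generation, so the insertion and anything else that separates it from Y478 cannot be told apart here. The comparison used 6 of the 24 libraries of the series, 3 plants of Y7-1 against 3 plants of Y478, and the other 18 libraries hold both lines under control, control with ABA and moderate drought. All 6 plants had water withheld from the 5-leaf stage until the pot mix was at 50% moisture or less. From that day their leaves were sprayed with 15 mg/L ABA, and the leaves were taken on day 9. Replicates are separate plants of a line and treatment. FPKM, the unit of the table, counts reads per length of gene and per depth of library. A gene was tested where 3 or more of the 24 libraries reached 0.5 FPKM, which held for 23978 of 46430 genes. Genes of gibberellin, of F-box proteins and of ABA signalling are left aside.

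As background, *PMP3* genes encode very small hydrophobic proteins of the plasma membrane that plants and yeast make under salt, cold and drought. A maize leaf fixes carbon by the C4 cycle: mesophyll cells take up bicarbonate and build organic acids, and bundle sheath cells release the carbon again for the Calvin cycle. Under drought, leaves close their stomata, change the water channels of their membranes and make proteins, sugars and amino acids that protect drying cells.

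The libraries held 17249263, 16051534 and 17203513 reads in Y7-1, against 18178814, 17626554 and 17666688 reads in Y478, as recovered from the FPKM values. The labels of the deposit name a tissue, a kit and a genome build that are not those of maize leaves, so the tissue was checked by its genes. Defining genes of the maize leaf were among the highest, with chloroplast NADP malic enzyme at 939 to 4226 FPKM and phosphoenolpyruvate carboxylase 1 at 539 to 3947 FPKM over the 6 libraries. The line labels were checked on 73 genes that were read in every Y7-1 and in no Y478 library under control and control with ABA, and on 41 genes of the opposite pattern. The Y7-1 libraries had reads of 72, 63 and 68 of the 73 and of 4, 4 and 1 of the 41, against 3, 2 and 1 and 41, 41 and 41 in Y478. In 1 library outside this comparison, labelled Y7-1 moderate drought replicate 3, 1 of the 73 and 41 of the 41 were read. It goes against its label and shares the estimate of spread. Values without it are given for the comparison under moderate drought and for the interactions. The other tests of the main fit include it. Without it 1983 genes were called higher in Y7-1 and 2538 lower under drought with ABA, and counts of gene groups moved too.

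The most abundant *PMP3* gene of the table, Zm00001d024778, described as hydrophobic protein RCI2B, is placed by the table on chromosome 10 from 87401369 to 87401545, in a build that is not stated. It had 1132, 1634 and 1104 FPKM in Y7-1, against 2179, 1239.8 and 2771 FPKM in Y478. The groups overlapped (log2 fold change -0.62, SE 0.58, adjusted p = 0.448 by limma, exact permutation two-sided p = 0.2, where 3 plants against 3 cannot give less than 0.1). Whether reads of the insert count to this gene model is not given in the sources used here, so its level is no check of the overexpression. Of 6 tested *PMP3* genes 0 were higher in Y7-1 and 1 lower. The lower one, Zm00001d028718, had 11.1, 4.02 and 2.74 FPKM in Y7-1, against 22.7, 20.4 and 34.9 FPKM in Y478 (log2 fold change -2.22, SE 0.74, adjusted p = 0.0321). Its call was lost with pseudocount 0.1 (adjusted p = 0.0734), without Y7-1 replicate 2 (adjusted p = 0.0919), without Y7-1 replicate 3 (adjusted p = 0.119), without Y478 replicate 1 (adjusted p = 0.0665), without Y478 replicate 3 (adjusted p = 0.106) and with total-read scaling (adjusted p = 0.0501), and over its 19 alternatives the adjusted p ranged from 0.00471 to 0.119.

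Between the lines 4311 genes differed (18% of those tested), 1887 higher in Y7-1 (7.87%) and 2424 lower (10.1%). A gene was called differentially expressed (DEG) where limma's adjusted p was below 0.05 and the log2 fold change reached 1 in either direction, on the scale log2(FPKM + 0.5). Changes of weakly expressed genes come out too small on it. Without overlap of the 3 and 3 libraries were 4199 of the DEGs, while 48.9% of all tested genes had none. The change exceeded 3 on the log2 scale in 221 higher and 237 lower genes. The median standard error was 0.31. Which direction prevails depends on how the libraries are scaled. When reads were scaled to the total of recovered reads instead, 2859 genes were higher and 1734 lower, and the median of all genes moved by 0.20 on the log2 scale, and with limma-voom on those reads 3214 were higher and 1845 lower. Limma-voom with the library sizes that the FPKM values imply gave 2006 and 2578. For this reason each group of genes is read against the shares of all genes, and its counts after scaling to total reads stand beside it. Those counts are to be read against the 2859 higher and 1734 lower of all genes. Counts of a group that move by over 1.5 times without 1 library are given where they hold 8 genes or more. Of 48 smaller counts above 0, 37 moved by that much without at least 1 library. Groups were matched by name and description, and members count as higher or lower by the test over all genes. In every called gene that is named, the 3 plants of Y7-1 and the 3 of Y478 did not overlap. The rules for naming the largest changes and the members of groups allowed only such genes, so this follows mostly from that choice.

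**Figure D1:**
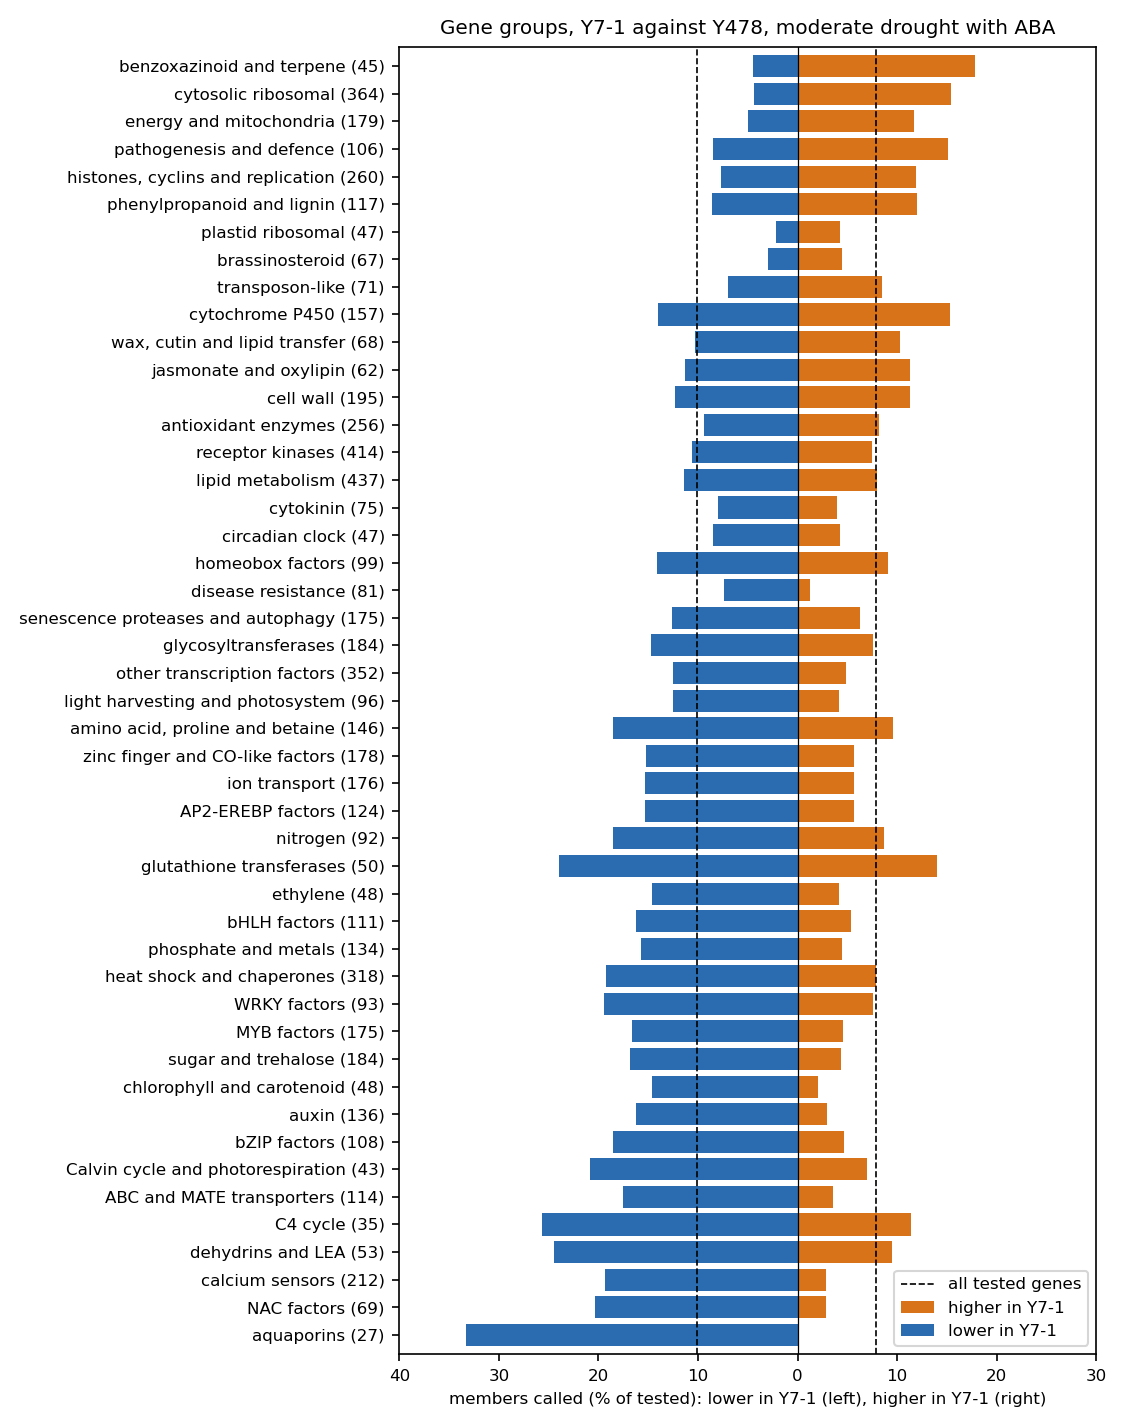
Share of tested members of each gene group that was higher in Y7-1 (right, orange) or lower (left, blue) than in Y478 under moderate drought with ABA, in percent, from 3 plants each. Dashed lines mark the shares over all 23978 tested genes, 7.87% higher and 10.1% lower. Aquaporins had 9 of 27 members lower and 0 higher, and cytosolic ribosomal proteins 56 of 364 higher.

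Several abundant photosynthesis genes of the bundle sheath were lower in Y7-1. In either direction 37.1% of C4 cycle genes and 27.9% of Calvin cycle and photorespiration genes were called. For light harvesting and photosystem genes it was 16.7%, near the 18% of all genes. Of genes of the C4 cycle, 4 of 35 (11.4%) were higher in Y7-1 and 9 (25.7%) lower, with a median log2 fold change of -0.20 (4 higher and 8 lower and a median of 0.06 after scaling to total reads). Of Calvin cycle and photorespiration genes, 3 of 43 (6.98%) were higher in Y7-1 and 9 (20.9%) lower (3 higher and 5 lower after scaling to total reads). NADP malic enzyme 3 (Zm00001d000316), which releases carbon dioxide for Rubisco in bundle sheath chloroplasts, had 1299, 1265 and 939 FPKM in Y7-1, against 3465, 3709 and 4226 FPKM in Y478 (log2 fold change -1.71, SE 0.28, adjusted p = 0.000644). Phosphoenolpyruvate carboxykinase 1 (Zm00001d028471), the other decarboxylase of this cell type, had 999.7, 1099.6 and 1087 FPKM in Y7-1, against 2598, 2956 and 3611 FPKM in Y478 (log2 fold change -1.51, SE 0.28, adjusted p = 0.00125). In phosphoribulokinase (Zm00001d017711), which renews the acceptor of carbon dioxide, the values were 488, 609.6 and 638 FPKM in Y7-1, against 1857, 1834 and 2499.7 FPKM in Y478 (log2 fold change -1.83, SE 0.32, adjusted p = 0.000801). In all 3 genes the Y478 plants were the higher ones. A second malic enzyme model, Zm00001d003090, had no reads in the Y7-1 plants and 16.5, 14.6 and 23.9 FPKM in Y478 (at least 526-fold lower, adjusted p = 0.000801, against a floor of 3 reads over the group). Summed over both chloroplast models the values were 1299, 1265 and 939 FPKM in Y7-1, against 3482, 3724 and 4250.3 FPKM in Y478, so the sum was lower too. A photorespiratory protein, glycine cleavage system protein H1 (Zm00001d023699), had 67, 80.3 and 103 FPKM in Y7-1, against 229, 229 and 298 FPKM in Y478 (log2 fold change -1.60, SE 0.36, adjusted p = 0.0036).

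Of 14 tested marker genes of the bundle sheath 0 were higher and 6 lower (0 and 5 after scaling to total reads), with a summed level from 5473 to 6671 FPKM in Y7-1, against 13590 to 17440 FPKM in Y478. These markers include the malic enzymes, the carboxykinase and the phosphoribulokinase given above, so they are not separate support. The abundant Rubisco small subunit genes 1 and 2 were not called (log2 fold change -0.61 and -0.97, adjusted p = 0.298 and 0.109 by limma). Mesophyll markers counted 1 higher and 2 lower of 9 (2 higher and 2 lower after scaling to total reads). The first enzyme of carbon uptake, carbonic anhydrase, was lower in 2 mesophyll models. Carbonic anhydrase 3 (Zm00001d044096) had 24.7, 19.2 and 27.2 FPKM in Y7-1, against 208, 151 and 107 FPKM in Y478 (log2 fold change -2.65, SE 0.26, adjusted p = 4.45e-05), and its neighbour Zm00001d044095 had 1.17, 0.913 and 1.45 FPKM in Y7-1, against 31.1, 29.8 and 30 FPKM in Y478 (log2 fold change -4.21, SE 0.51, adjusted p = 0.000162). Phosphoenolpyruvate carboxylase 1 (Zm00001d046170), which builds the C4 acid, went the other way with 2590.2, 2929 and 3947 FPKM in Y7-1, against 1741, 1512 and 539 FPKM in Y478 (log2 fold change 1.47, SE 0.46, adjusted p = 0.0243). This last call was lost with no filter (adjusted p = 0.0831), with only the 6 drought-ABA libraries (adjusted p = 0.0725), without Y7-1 replicate 2 (adjusted p = 0.0543), without Y7-1 replicate 3 (adjusted p = 0.0841) and without Y478 replicate 3 (adjusted p = 0.155), and over its 19 alternatives the adjusted p ranged from 0.00625 to 0.155. Summed over 18 carbonic anhydrase models the level was 1781, 1896 and 1834 FPKM in Y7-1, against 3242, 2688 and 1689.9 FPKM in Y478, and the lines overlapped. The summed mesophyll markers overlapped as well, with 6804 to 9369 FPKM in Y7-1 and 3580 to 8119 FPKM in Y478. In bulk leaf RNA, fewer cells of a type and less RNA per cell cannot be told apart, and the part that the marker levels have in the other results was not tested.

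Among light harvesting and photosystem genes, 4 of 96 (4.17%) were higher in Y7-1 and 12 (12.5%) lower, with a median of -0.43. These shares are near those of all genes. After scaling to total reads 9 were higher and 8 lower, with a median of -0.17 against 0.20 for all genes. The 12 became 6 without Y7-1 replicate 1 and 7 without Y7-1 replicate 2. Single members were far apart. A chlorophyll a-b binding protein 2 model, Zm00001d044402, which holds light-collecting pigment, had 0.572, 1.07 and 1.12 FPKM in Y7-1, against 67.2, 71.2 and 77.3 FPKM in Y478 (log2 fold change -5.69, SE 0.80, adjusted p = 0.0003). Leaf ferredoxin-NADP reductase, the last step of electron transport, had an opposite pattern in 2 low models: Zm00001d005458 had 8.05, 1.56 and 11.3 FPKM in Y7-1, against 0.33, 0.268 and 0.681 FPKM in Y478 (log2 fold change 2.70, SE 0.60, adjusted p = 0.00342), and Zm00001d023296 had 2.59, 2.09 and 4.54 FPKM in Y7-1 and no reads in Y478 (at least 115-fold higher, adjusted p = 0.000644). The sum over 5 such models was 857, 1064 and 1274 FPKM in Y7-1, against 1059.9, 789.5 and 481 FPKM in Y478, and here the groups overlapped. Of pigment genes, 1 of 48 (2.08%) were higher in Y7-1 and 7 (14.6%) lower (4 higher and 4 lower after scaling to total reads). The 7 became 4 without Y7-1 replicate 2, 4 without Y7-1 replicate 3 and 4 without Y478 replicate 1. Phytoene synthase (Zm00001d021410), the entry step of carotenoids, had 18.3, 11.2 and 22.4 FPKM in Y7-1, against 116, 60 and 112 FPKM in Y478 (log2 fold change -2.43, SE 0.46, adjusted p = 0.0014). The cyclase Zm00001d040463, which closes the last ring of the chlorophyll precursor, had 14.2, 5.84 and 19.8 FPKM in Y7-1, against 50, 52 and 70.3 FPKM in Y478 (log2 fold change -2.21, SE 0.53, adjusted p = 0.00583).

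Water channels were the group with the largest share called in 1 direction among the lists of functions. Aquaporins carry water through the plasma membrane (PIP) and the vacuole membrane (TIP). Of 27 tested, 0 were higher in Y7-1 and 9 lower (33.3%), and the median was -0.59 (0 higher and 8 lower with a median of -0.55 after scaling to total reads). *TIP1-1* (Zm00001d027652) had 595, 555 and 346 FPKM in Y7-1, against 3678, 2595 and 3027 FPKM in Y478 (log2 fold change -2.66, SE 0.48, adjusted p = 0.000981). Tonoplast intrinsic protein 2 (Zm00001d051362) had 95.5, 105 and 45.8 FPKM in Y7-1, against 615, 351 and 432 FPKM in Y478 (log2 fold change -2.55, SE 0.46, adjusted p = 0.000988). At the plasma membrane, PIP2-6 (Zm00001d019565) had 24, 18.5 and 21.8 FPKM in Y7-1, against 349, 201 and 264 FPKM in Y478 (log2 fold change -3.60, SE 0.89, adjusted p = 0.00644) and plasma membrane intrinsic protein 1 (Zm00001d002690) had 615, 430.2 and 710.4 FPKM in Y7-1, against 3650.0, 1962 and 3092 FPKM in Y478 (log2 fold change -2.29, SE 0.40, adjusted p = 0.000824). Every Y478 plant exceeded every Y7-1 plant in these 4 genes, which the choice of group members required. The levels of 12 PIP models summed to 2002, 1572 and 1754 FPKM in Y7-1, against 8276, 5039 and 6781 FPKM in Y478, and those of 13 TIP models to 804, 772 and 463 FPKM in Y7-1, against 4383, 3050.0 and 3514 FPKM in Y478. Neither sum overlapped between the lines. The sums include the 4 genes given above, so they are not separate support.

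Of ion transport genes, 10 of 176 (5.68%) were higher in Y7-1 and 27 (15.3%) lower (17 higher and 26 lower after scaling to total reads). Among the lower ones was a proton pump of the plasma membrane, membrane H(+)-ATPase1 (Zm00001d007775), with no reads in Y7-1 and 20.8, 13.8 and 11.6 FPKM in Y478 (at least 647-fold lower, adjusted p = 0.000517). It was 1 of 4 pump models, whose sum was 130.3, 134 and 91.7 FPKM in Y7-1, against 155, 235 and 205 FPKM in Y478. The two-pore potassium channel 1 (Zm00001d049218), which in *Arabidopsis* sits in the vacuole membrane, had 0.325, 0.653 and 0.622 FPKM in Y7-1, against 16.3, 10.8 and 10 FPKM in Y478 (log2 fold change -3.63, SE 0.39, adjusted p = 9.3e-05). A subunit of a voltage-gated potassium channel (Zm00001d018485) had 1.51, 2.31 and 2.92 FPKM in Y7-1, against 18.7, 11.7 and 24.2 FPKM in Y478 (log2 fold change -2.74, SE 0.44, adjusted p = 0.000522). The opposite direction was seen in *SLAH3* (Zm00001d039314), an anion channel of the plasma membrane, with 40.6, 25.1 and 29.1 FPKM in Y7-1, against 5.39, 8.27 and 5.54 FPKM in Y478 (log2 fold change 2.21, SE 0.54, adjusted p = 0.0062). It was also seen in the pyrophosphate-driven proton pump of the vacuole Zm00001d053727, with 4.33, 12.9 and 8.69 FPKM in Y7-1, against 1.11, 1.25 and 1.37 FPKM in Y478 (log2 fold change 2.27, SE 0.48, adjusted p = 0.00248).

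Calcium sensors, the EF-hand proteins and kinases that read calcium signals, were mostly lower where they were called: 6 of 212 (2.83%) were higher in Y7-1 and 41 (19.3%) lower, with a median of -0.35 (12 higher and 28 lower after scaling to total reads, and 27 lower without Y478 replicate 3). An EF hand protein (Zm00001d037173) had 0.169, 0 and 0.349 FPKM in Y7-1, against 69.5, 93.1 and 27.6 FPKM in Y478 (log2 fold change -6.44, SE 0.97, adjusted p = 0.000443). A more abundant one, Zm00001d014325, had 29.8, 22.2 and 25 FPKM in Y7-1, against 148, 142 and 292 FPKM in Y478 (log2 fold change -2.82, SE 0.32, adjusted p = 0.00013). Calcium-dependent protein kinase 3 (Zm00001d044185) had 0.765, 0.774 and 0.775 FPKM in Y7-1, against 8.17, 10.3 and 7.47 FPKM in Y478 (log2 fold change -2.83, SE 0.55, adjusted p = 0.00164). Against this, the kinases Zm00001d038409 and Zm00001d022166 were higher. The first, calcium-dependent protein kinase 13, had 3.17, 3.71 and 3.92 FPKM in Y7-1, against 0.726, 0.76 and 0.275 FPKM in Y478 (log2 fold change 1.94, SE 0.32, adjusted p = 0.000644), and the second, related to this family, had 12.5, 10.4 and 10 FPKM in Y7-1, against 1.81, 2.18 and 1.07 FPKM in Y478 (log2 fold change 2.42, SE 0.40, adjusted p = 0.000627).

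**Figure D2:**
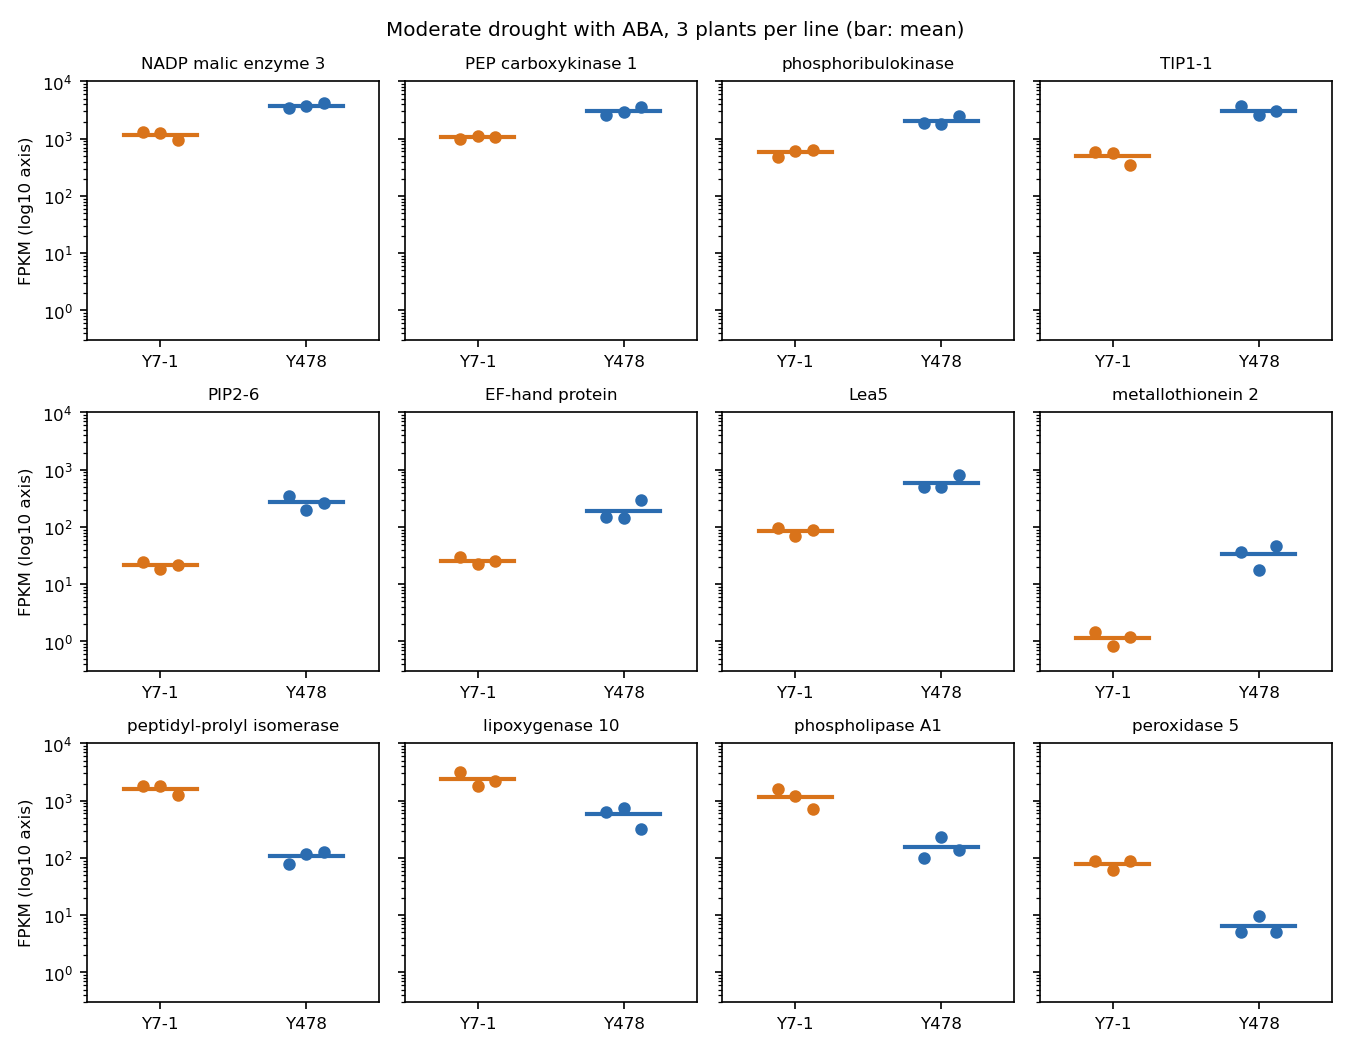
FPKM of 12 genes in each library under moderate drought with ABA on a log10 axis, with Y7-1 (orange) left of Y478 (blue), 1 point per plant and a bar at the mean of 3 plants. *TIP1-1* lay at 346 to 595 FPKM in the Y7-1 plants and at 2595 to 3678 FPKM in the Y478 plants. The 3 and 3 points of each gene do not overlap, since named genes were mostly chosen so.

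Heat shock proteins and other chaperones, which keep proteins folded, differed at 27.0% of tested members: 25 of 318 (7.86%) were higher in Y7-1 and 61 (19.2%) lower (41 higher and 44 lower after scaling to total reads, where all genes were more often higher than lower). The 25 became 13 without Y478 replicate 3. The small heat shock proteins split by copy. Models Zm00001d047841 and Zm00001d028561 of a class I small heat shock protein were lower, the first with 3.11, 4.28 and 1.21 FPKM in Y7-1, against 409, 98 and 194 FPKM in Y478 (log2 fold change -6.00, SE 1.06, adjusted p = 0.000908) and the second with 16, 12 and 5.39 FPKM in Y7-1, against 1298, 312 and 759 FPKM in Y478 (log2 fold change -5.98, SE 1.21, adjusted p = 0.00195). Another copy, Zm00001d039936, had 1694, 3295 and 549.8 FPKM in Y7-1, against 41.7, 149.5 and 129 FPKM in Y478 (log2 fold change 3.96, SE 1.30, adjusted p = 0.0308). Its call was lost without Y7-1 replicate 1 (adjusted p = 0.0755), without Y7-1 replicate 2 (adjusted p = 0.113), without Y478 replicate 1 (adjusted p = 0.112), without Y478 replicate 3 (adjusted p = 0.0599) and with limma-voom on the FPKM library sizes (adjusted p = 0.0547), and over its 19 alternatives the adjusted p ranged from 0.000168 to 0.113. Summed over 6 models of this protein the level was 1765, 3340.2 and 577 FPKM in Y7-1, against 2386, 1116 and 1547 FPKM in Y478, and the lines overlapped. How reads were shared between near-identical copies is not given in the sources used here. A chloroplast ClpC1 chaperone model (Zm00001d029672) had 0.0462, 0 and 0.119 FPKM in Y7-1, against 16.8, 17.8 and 22.2 FPKM in Y478 (log2 fold change -5.13, SE 0.74, adjusted p = 0.000336). One of the highest genes that were higher in Y7-1 was a peptidyl-prolyl isomerase (Zm00001d050635), an enzyme that helps proteins fold, with 1775, 1798 and 1238 FPKM in Y7-1, against 78.7, 119.7 and 125 FPKM in Y478 (log2 fold change 3.90, SE 0.67, adjusted p = 0.00074).

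Dehydrins and late embryogenesis abundant (LEA) proteins protect drying cells. Of these, 5 of 53 (9.43%) were higher in Y7-1 and 13 (24.5%) lower, with a median of -0.33 (6 higher and 13 lower after scaling to total reads). The *Lea5* gene Zm00001d040659 had 96.2, 68.2 and 88.7 FPKM in Y7-1, against 494, 499 and 802 FPKM in Y478 (log2 fold change -2.79, SE 0.59, adjusted p = 0.00246), and Zm00001d025434 of the same group had 0.27, 0.186 and 0.633 FPKM in Y7-1, against 6.79, 3.58 and 3.87 FPKM in Y478 (log2 fold change -2.59, SE 0.40, adjusted p = 0.000492). Dehydrin COR410 (Zm00001d017547) had 95.3, 61.4 and 189 FPKM in Y7-1, against 926, 363 and 609 FPKM in Y478 (log2 fold change -2.50, SE 0.73, adjusted p = 0.017), a call lost without Y7-1 replicate 2 (adjusted p = 0.0757) and without Y478 replicate 1 (adjusted p = 0.0727), and over its 19 alternatives the adjusted p ranged from 0.000726 to 0.0757. An LEA hydroxyproline-rich protein (Zm00001d037751) had 36, 70.9 and 25.4 FPKM in Y7-1, against 12.5, 14.3 and 3.47 FPKM in Y478 (log2 fold change 2.16, SE 0.52, adjusted p = 0.00561), in the opposite direction.

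Antioxidant enzymes, which remove reactive oxygen, were called at shares near those of all genes: 21 of 256 (8.2%) were higher in Y7-1 and 24 (9.38%) lower (26 higher and 19 lower after scaling to total reads, and 13 higher without Y478 replicate 1 and 9 without Y478 replicate 3). Peroxidase 5 (Zm00001d037550) had 86.9, 60.8 and 87.9 FPKM in Y7-1, against 5.03, 9.68 and 5.11 FPKM in Y478 (log2 fold change 3.52, SE 0.93, adjusted p = 0.00987), and a putative ascorbate peroxidase 6 (Zm00001d031494) had 23.3, 29.9 and 15.4 FPKM in Y7-1, against 3.81, 3.92 and 4.72 FPKM in Y478 (log2 fold change 2.29, SE 0.49, adjusted p = 0.00297). A glutaredoxin (Zm00001d038445), a small protein that reduces disulfides, had 1.04, 0.72 and 0.0298 FPKM in Y7-1, against 5.11, 3.64 and 6.96 FPKM in Y478 (log2 fold change -2.48, SE 0.56, adjusted p = 0.00402). Of glutathione transferases, which couple glutathione to toxic compounds, 7 of 50 (14%) were higher in Y7-1 and 12 (24%) lower (9 higher and 11 lower after scaling to total reads). The 7 became 4 without Y7-1 replicate 1, 3 without Y7-1 replicate 2 and 3 without Y478 replicate 1. *GSTU6* (Zm00001d043795) had 20, 9.61 and 11.1 FPKM in Y7-1, against 146, 56.9 and 90.1 FPKM in Y478 (log2 fold change -2.77, SE 0.63, adjusted p = 0.00405). The theta-class gene Zm00001d034937 had 10.8, 9.07 and 12.9 FPKM in Y7-1, against 1.2, 1.7 and 2.21 FPKM in Y478 (log2 fold change 2.39, SE 0.65, adjusted p = 0.0111), and its relative Zm00001d035642 had 17.7, 11.5 and 12.7 FPKM in Y7-1, against 2.22, 1.91 and 3.37 FPKM in Y478 (log2 fold change 2.28, SE 0.48, adjusted p = 0.00262).

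Genes of terpenes and benzoxazinoids, volatile and toxic compounds that grasses make against attackers, were more often higher: 8 of 45 (17.8%) were higher in Y7-1 and 2 (4.44%) lower, with a median of 0.28 (12 higher and 2 lower after scaling to total reads). The 8 became 4 without Y7-1 replicate 1 and 3 without Y478 replicate 3. Terpene synthase 2 (Zm00001d015053) had 44.1, 22.9 and 43.7 FPKM in Y7-1, against 3.86, 2.58 and 0.572 FPKM in Y478 (log2 fold change 3.88, SE 0.81, adjusted p = 0.00236). Sesquiterpene cyclase 1 (Zm00001d045054) had 73.6, 85.3 and 95.5 FPKM in Y7-1, against 0.737, 0.897 and 0.516 FPKM in Y478 (log2 fold change 6.14, SE 1.19, adjusted p = 0.00159), which no longer passed with limma-voom (adjusted p = 0.0535) and with limma-voom on the FPKM library sizes (adjusted p = 0.0839), and over its 19 alternatives the adjusted p ranged from 6.4e-06 to 0.0839. Terpene synthase 10 (Zm00001d024486) went the other way with 0.0638, 0 and 0 FPKM in Y7-1, against 11.9, 18.6 and 28.9 FPKM in Y478 (log2 fold change -5.20, SE 1.58, adjusted p = 0.0208). Its call was lost with limma-voom (adjusted p = 0.0638), without Y7-1 replicate 2 (adjusted p = 0.0543), without Y7-1 replicate 3 (adjusted p = 0.0509), without Y478 replicate 3 (adjusted p = 0.0689) and with limma-voom on the FPKM library sizes (adjusted p = 0.0585), and over its 19 alternatives the adjusted p ranged from 0.000425 to 0.0689.

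Genes of oxylipins, signals and volatiles made from fatty acids, were called in both directions, 7 higher and 7 lower of 62 tested (8 higher and 4 lower after scaling to total reads). The 7 higher became 2 without Y7-1 replicate 1, 3 without Y478 replicate 1, 4 without Y478 replicate 2 and 3 without Y478 replicate 3. Lipoxygenase 10 (Zm00001d053675), which in maize leaves starts the path to green leaf volatiles, had 3209, 1805 and 2231 FPKM in Y7-1, against 645, 758 and 326 FPKM in Y478 (log2 fold change 2.11, SE 0.53, adjusted p = 0.00712). A later enzyme of the same volatiles, (Z)-3-hexen-1-ol acetyltransferase (Zm00001d006795), had 0.505, 0.308 and 1.27 FPKM in Y7-1, against 60.2, 30 and 41.9 FPKM in Y478 (log2 fold change -5.25, SE 1.32, adjusted p = 0.00732). *TIFY 10B* (Zm00001d024455), of the repressors of jasmonate response, had 6.08, 4.83 and 1.86 FPKM in Y7-1 and no reads in Y478 (at least 38.3-fold higher, adjusted p = 0.000944). A chloroplast phospholipase A1 (Zm00001d039542), which frees fatty acids from membrane lipids, was among the most abundant genes that were higher, with 1624, 1221 and 713 FPKM in Y7-1, against 98.8, 229 and 138 FPKM in Y478 (log2 fold change 2.94, SE 0.61, adjusted p = 0.00221). Of lipid metabolism genes as a whole, 35 of 437 (8.01%) were higher in Y7-1 and 50 (11.4%) lower (45 higher and 33 lower after scaling to total reads, and 23 higher without Y478 replicate 3). For wax, cutin and lipid transfer genes the counts were 7 higher and 7 lower of 68 (11 higher and 3 lower after scaling to total reads). Without 1 library at a time the wax group had between 2 and 5 higher and between 2 and 6 lower.

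Phenylpropanoid and lignin genes counted 14 higher and 10 lower of 117 (16 higher and 7 lower after scaling to total reads). The 10 became 6 without Y7-1 replicate 2 and 6 without Y478 replicate 3. A leucoanthocyanidin reductase (Zm00001d026370) and an anthocyanidin reductase (Zm00001d042594), both enzymes of the path to tannin-like compounds, were read only in Y7-1. The first had 38.4, 37.4 and 23.1 FPKM (at least 875-fold higher, adjusted p = 0.000162) and the second 6.08, 6.24 and 4.44 FPKM (at least 75.1-fold higher, adjusted p = 0.000162). An anthocyanidin glucosyltransferase (Zm00001d042739), which finishes red pigments, had 8.5, 3.31 and 1.19 FPKM in Y7-1, against 68.1, 19.9 and 67.7 FPKM in Y478 (log2 fold change -3.56, SE 0.67, adjusted p = 0.00132). Dihydroflavonoid reductase 1 (Zm00001d020970), an enzyme upstream of both, had 0.0755, 0 and 0 FPKM in Y7-1, against 3.81, 2.05 and 1.73 FPKM in Y478 (log2 fold change -2.47, SE 0.47, adjusted p = 0.00135). Isoflavone reductase-like 1 (Zm00001d040173) had 98.1, 186 and 22.7 FPKM in Y7-1, against 2.87, 13.2 and 2.17 FPKM in Y478 (log2 fold change 3.92, SE 0.92, adjusted p = 0.0051). Cytochrome P450 genes, the oxidases of much of this chemistry, were called at 29.3%: 24 of 157 (15.3%) were higher in Y7-1 and 22 (14%) lower (28 higher and 20 lower after scaling to total reads). The 24 became 14 without Y478 replicate 1 and 13 without Y478 replicate 3. *CYP71B10* (Zm00001d019414) had 30.1, 46.7 and 57 FPKM in Y7-1 and no reads in Y478 (at least 969-fold higher, adjusted p = 0.00542), and *CYP71A26* (Zm00001d039310) had 0.978, 2.69 and 1.27 FPKM in Y7-1, against 28.1, 22.7 and 22.1 FPKM in Y478 (log2 fold change -3.61, SE 0.59, adjusted p = 0.000605). Glycosyltransferases counted 14 higher and 27 lower of 184 (21 higher and 20 lower after scaling to total reads, and 17 lower without Y7-1 replicate 3 and 16 without Y478 replicate 3, and 9 higher without Y478 replicate 3).

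Pathogenesis and defence proteins were called at 15.1% higher and 8.49% lower, 16 higher and 9 lower of 106 (21 higher and 4 lower after scaling to total reads). The 9 became 4 without Y7-1 replicate 3, 4 without Y478 replicate 1 and 4 without Y478 replicate 3. Pathogenesis-related protein 3 (Zm00001d048947) had 19.7, 37.1 and 4.51 FPKM in Y7-1, against 0, 0 and 0.335 FPKM in Y478 (log2 fold change 4.72, SE 1.21, adjusted p = 0.00799). A Bowman-Birk inhibitor of trypsin (Zm00001d012939), which blocks the gut enzymes of insects, had 15, 7.0 and 5.49 FPKM in Y7-1 and no reads in Y478 (at least 124-fold higher, adjusted p = 0.0013). The thaumatin-like gene Zm00001d032027 had 7.34, 5.95 and 8.25 FPKM in Y7-1, against 41.3, 16.5 and 47.3 FPKM in Y478 (log2 fold change -2.09, SE 0.46, adjusted p = 0.00332). Intracellular disease resistance receptors were rarely called, 1 higher and 6 lower of 81 (5 higher and 6 lower after scaling to total reads), below the share of all genes. The RGA2-like receptor Zm00001d007776 had 0.24, 0.169 and 0.591 FPKM in Y7-1, against 7.12, 8.93 and 5.95 FPKM in Y478 (log2 fold change -3.25, SE 0.54, adjusted p = 0.000644), and the NB-ARC gene Zm00001d048665 had 2.47, 2.55 and 3.57 FPKM in Y7-1, against 0.040, 0 and 0.138 FPKM in Y478 (log2 fold change 2.58, SE 0.49, adjusted p = 0.00138). Receptor kinases at the cell surface counted 31 higher and 44 lower of 414 (47 higher and 26 lower after scaling to total reads), and the 31 became 14 without Y478 replicate 3. A lectin-like receptor kinase 7 (Zm00001d034217) had 0.419, 1.26 and 1.73 FPKM in Y7-1, against 8.78, 9.56 and 10.9 FPKM in Y478 (log2 fold change -2.73, SE 0.55, adjusted p = 0.00196), and Zm00001d046938 had 40.4, 9.89 and 27.6 FPKM in Y7-1, against 3.73, 4.12 and 1.3 FPKM in Y478 (log2 fold change 2.80, SE 0.53, adjusted p = 0.0014).

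Sugar and starch genes were lower in 16.8% of tested members, 8 higher and 31 lower of 184 (13 higher and 24 lower after scaling to total reads). The 31 became 19 without Y478 replicate 1. Granule-bound starch synthase 1 (Zm00001d027242), which makes amylose, had 0.182, 0.131 and 0.225 FPKM in Y7-1, against 7.93, 7.89 and 8.2 FPKM in Y478 (log2 fold change -3.65, SE 0.63, adjusted p = 0.000817). Invertase 2 (Zm00001d014947), which splits sucrose, had 22.8, 9.86 and 26.5 FPKM in Y7-1, against 856, 218 and 195 FPKM in Y478 (log2 fold change -4.15, SE 1.20, adjusted p = 0.0153), a call lost without Y7-1 replicate 2 (adjusted p = 0.0616) and without Y478 replicate 1 (adjusted p = 0.0746), and over its 19 alternatives the adjusted p ranged from 0.000559 to 0.0746. Sucrose synthase 1 (Zm00001d047253), which also cleaves sucrose, was higher with 10.1, 7.38 and 7.85 FPKM in Y7-1, against 2.75, 1.5 and 0.903 FPKM in Y478 (log2 fold change 2.09, SE 0.42, adjusted p = 0.002). The phosphofructokinase Zm00001d036206, an entry to glycolysis, had 4.65, 5.02 and 3.98 FPKM in Y7-1, against 0.043, 0.461 and 0.383 FPKM in Y478 (log2 fold change 2.70, SE 0.59, adjusted p = 0.00324). Among phloem markers 1 of 12 was higher and 1 lower, also after scaling to total reads. Of the 12, 8 were below 0, with a median of -0.14 (0.11 after scaling to total reads, against 0.20 for all genes). The higher one, *sucrose transporter2* (Zm00001d041192) in the names of the table, had 27.2, 25 and 19 FPKM in Y7-1, against 11, 12 and 8.04 FPKM in Y478 (log2 fold change 1.16, SE 0.27, adjusted p = 0.00453).

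Nitrogen genes were lower in 18.5% of tested members, 8 higher and 17 lower of 92, with a median of -0.40. After scaling to total reads 12 were higher and 8 lower, with a median of -0.19 against 0.20 for all genes. The 17 became 11 without Y7-1 replicate 1, 10 without Y7-1 replicate 2 and 11 without Y478 replicate 3, and the 8 became 5 without Y7-1 replicate 1 and 5 without Y478 replicate 3. Members of the NRT1/PTR family carry nitrate, peptides and other small solutes. NPF3.1 (Zm00001d038181) had 22.9, 20.6 and 18.7 FPKM in Y7-1, against 334, 249 and 523 FPKM in Y478 (log2 fold change -4.06, SE 0.62, adjusted p = 0.000468), and NPF4.4 (Zm00001d007255) had 0.409, 0.376 and 1.64 FPKM in Y7-1, against 62.2, 22.5 and 67.8 FPKM in Y478 (log2 fold change -5.27, SE 0.90, adjusted p = 0.000736). Glutamine synthetase 2 of the table (Zm00001d033747), a cytosolic enzyme that binds ammonium, had 14, 26.2 and 5.06 FPKM in Y7-1, against 52.9, 155 and 165 FPKM in Y478 (log2 fold change -3.11, SE 0.69, adjusted p = 0.00359). A nitrate reductase (Zm00001d017025) was higher with 2.51, 2.35 and 3.28 FPKM in Y7-1, against 0.289, 0.0866 and 0 FPKM in Y478 (log2 fold change 2.38, SE 0.54, adjusted p = 0.00402).

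In amino acid, proline and betaine metabolism, 14 of 146 (9.59%) were higher in Y7-1 and 27 (18.5%) lower (23 higher and 21 lower after scaling to total reads, where all genes were more often higher than lower). Proline oxidase (Zm00001d029853) breaks down proline, a solute that protects drying cells. It had 3.04, 2.38 and 2.14 FPKM in Y7-1, against 75.8, 42 and 118 FPKM in Y478 (log2 fold change -4.60, SE 1.13, adjusted p = 0.00633). Arginine decarboxylase (Zm00001d051194), the first step to the polyamine putrescine, had 74.8, 56.4 and 183 FPKM in Y7-1, against 5.96, 4.9 and 4.21 FPKM in Y478 (log2 fold change 4.07, SE 1.04, adjusted p = 0.00776). Spermidine hydroxycinnamoyl transferase (Zm00001d018367), which uses polyamines, had 5.3, 9.31 and 4.78 FPKM in Y7-1, against 0.151, 0.11 and 0 FPKM in Y478 (log2 fold change 3.52, SE 0.85, adjusted p = 0.00593). Of phosphate and metal genes, 6 of 134 (4.48%) were higher in Y7-1 and 21 (15.7%) lower, with a median of -0.48 (9 higher and 15 lower after scaling to total reads). The 21 became 13 without Y478 replicate 1. Metallothioneins, small proteins that bind metal ions, split again by copy. Metallothionein 2 (Zm00001d029778) had 1.44, 0.819 and 1.2 FPKM in Y7-1, against 36.2, 18 and 47.4 FPKM in Y478 (log2 fold change -4.29, SE 0.96, adjusted p = 0.00362), and the type 2 gene Zm00001d039914 had 55.7, 95.6 and 75.5 FPKM in Y7-1 and no reads in Y478 (at least 1052-fold higher, adjusted p = 0.0003). In the other treatments, reads of this type 2 gene were in 4 of the 9 Y478 libraries, so Y478 does not lack it. Purple acid phosphatase 15 (Zm00001d034839), which frees phosphate from organic compounds, had 5.62, 5.52 and 3.83 FPKM in Y7-1, against 39.4, 45.5 and 27.7 FPKM in Y478 (log2 fold change -2.78, SE 0.60, adjusted p = 0.00304).

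Cytosolic ribosomal proteins had the highest median of the groups of over 100 genes: 56 of 364 (15.4%) were higher in Y7-1 and 16 (4.4%) lower, with a median of 0.44 and 294 of 364 above 0 (98 higher and 13 lower after scaling to total reads). The 56 became 34 without Y478 replicate 1, and the 16 became 7 without Y7-1 replicate 3, 10 without Y478 replicate 1 and 7 without Y478 replicate 3. Members of 1 protein split by copy: among 45 models of 40S ribosomal protein S4-3 with reads, 7 had none in the Y7-1 plants and 11 had none in the Y478 plants. The model Zm00001d045775 had no reads in Y7-1 and 2.05, 4.79 and 3.85 FPKM in Y478 (at least 20-fold lower, adjusted p = 0.00141), while Zm00001d031743 had 23.2, 24.4 and 26.4 FPKM in Y7-1, against 0, 0.14 and 0 FPKM in Y478 (log2 fold change 5.53, SE 1.14, adjusted p = 0.00219). The sum over the 45 was 208, 195 and 219 FPKM in Y7-1, against 122, 146 and 133 FPKM in Y478. Plastid ribosomal proteins were rarely called, 2 higher and 1 lower of 47 (5 higher and 1 lower after scaling to total reads). Of energy and mitochondrial genes, 21 of 179 (11.7%) were higher in Y7-1 and 9 (5.03%) lower (31 higher and 6 lower after scaling to total reads), and the 21 became 13 without Y478 replicate 3. Aldehyde dehydrogenase 5 (Zm00001d044340) had 19.6, 15.9 and 13.5 FPKM in Y7-1, against 0.67, 0.326 and 0.0603 FPKM in Y478 (log2 fold change 4.35, SE 0.86, adjusted p = 0.00173), and succinate dehydrogenase 9 (Zm00001d038502) of the citric acid cycle had 0, 0.14 and 0 FPKM in Y7-1, against 3.99, 3.52 and 3.27 FPKM in Y478 (log2 fold change -2.91, SE 0.55, adjusted p = 0.00132).

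Genes of chromatin, the cell cycle and the cytoskeleton counted 31 higher and 20 lower of 260 (44 higher and 11 lower after scaling to total reads). The 20 became 11 without Y7-1 replicate 2, 12 without Y7-1 replicate 3, 9 without Y478 replicate 1 and 11 without Y478 replicate 3. Histones are the proteins that pack DNA, and histone H2B (Zm00001d012423) had 16.5, 18.5 and 25 FPKM in Y7-1, against 89.9, 95.2 and 108 FPKM in Y478 (log2 fold change -2.27, SE 0.44, adjusted p = 0.00159). A histone H4 gene (Zm00001d042954) had 25.4, 11 and 29 FPKM in Y7-1, against 136, 97.6 and 85.3 FPKM in Y478 (log2 fold change -2.34, SE 0.49, adjusted p = 0.00228), and all 16 histone H4 models summed to 379, 314 and 513 FPKM in Y7-1, against 743, 730.1 and 510.5 FPKM in Y478, where the lines overlapped. Beta tubulin 6b (Zm00001d043158), of microtubules, had 11.5, 25.7 and 14.3 FPKM in Y7-1, against 0.688, 0.886 and 0.413 FPKM in Y478 (log2 fold change 3.87, SE 0.50, adjusted p = 0.000183). Marker genes of dividing cells were summed to 2400 to 3113 FPKM in Y7-1, against 4406 to 4668 FPKM in Y478, with 4 of 79 higher and 14 lower (6 higher and 10 lower after scaling to total reads). The 14 became 9 without Y7-1 replicate 2 and 7 without Y478 replicate 1. These markers include the histone H2B and H4 genes given above, so they are not separate support. In the opposite direction, the replication factor gene MCM5 (Zm00001d018384) of the same markers had 2.78, 7.26 and 11.9 FPKM in Y7-1 and no reads in Y478. Cell wall genes counted 22 higher and 24 lower of 195 (29 higher and 21 lower after scaling to total reads). The 22 became 11 without Y7-1 replicate 2 and 11 without Y478 replicate 3, and the 24 became 15 without Y7-1 replicate 3 and 14 without Y478 replicate 3. *QUA2* (Zm00001d052213), a pectin methyltransferase, had 0.40, 0.519 and 0.268 FPKM in Y7-1, against 36.3, 28.3 and 29.4 FPKM in Y478 (log2 fold change -5.15, SE 0.79, adjusted p = 0.000468). Callose synthase 3 (Zm00001d027472) had 23.5, 24.9 and 54 FPKM in Y7-1, against 2.02, 1.88 and 1.63 FPKM in Y478 (log2 fold change 3.78, SE 0.64, adjusted p = 0.000723), and expansin B4 (Zm00001d029903), which loosens walls, had 1.91, 9.45 and 4.03 FPKM in Y7-1, against 0.113, 0 and 0 FPKM in Y478 (log2 fold change 3.16, SE 0.48, adjusted p = 0.000468).

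**Figure D3:**
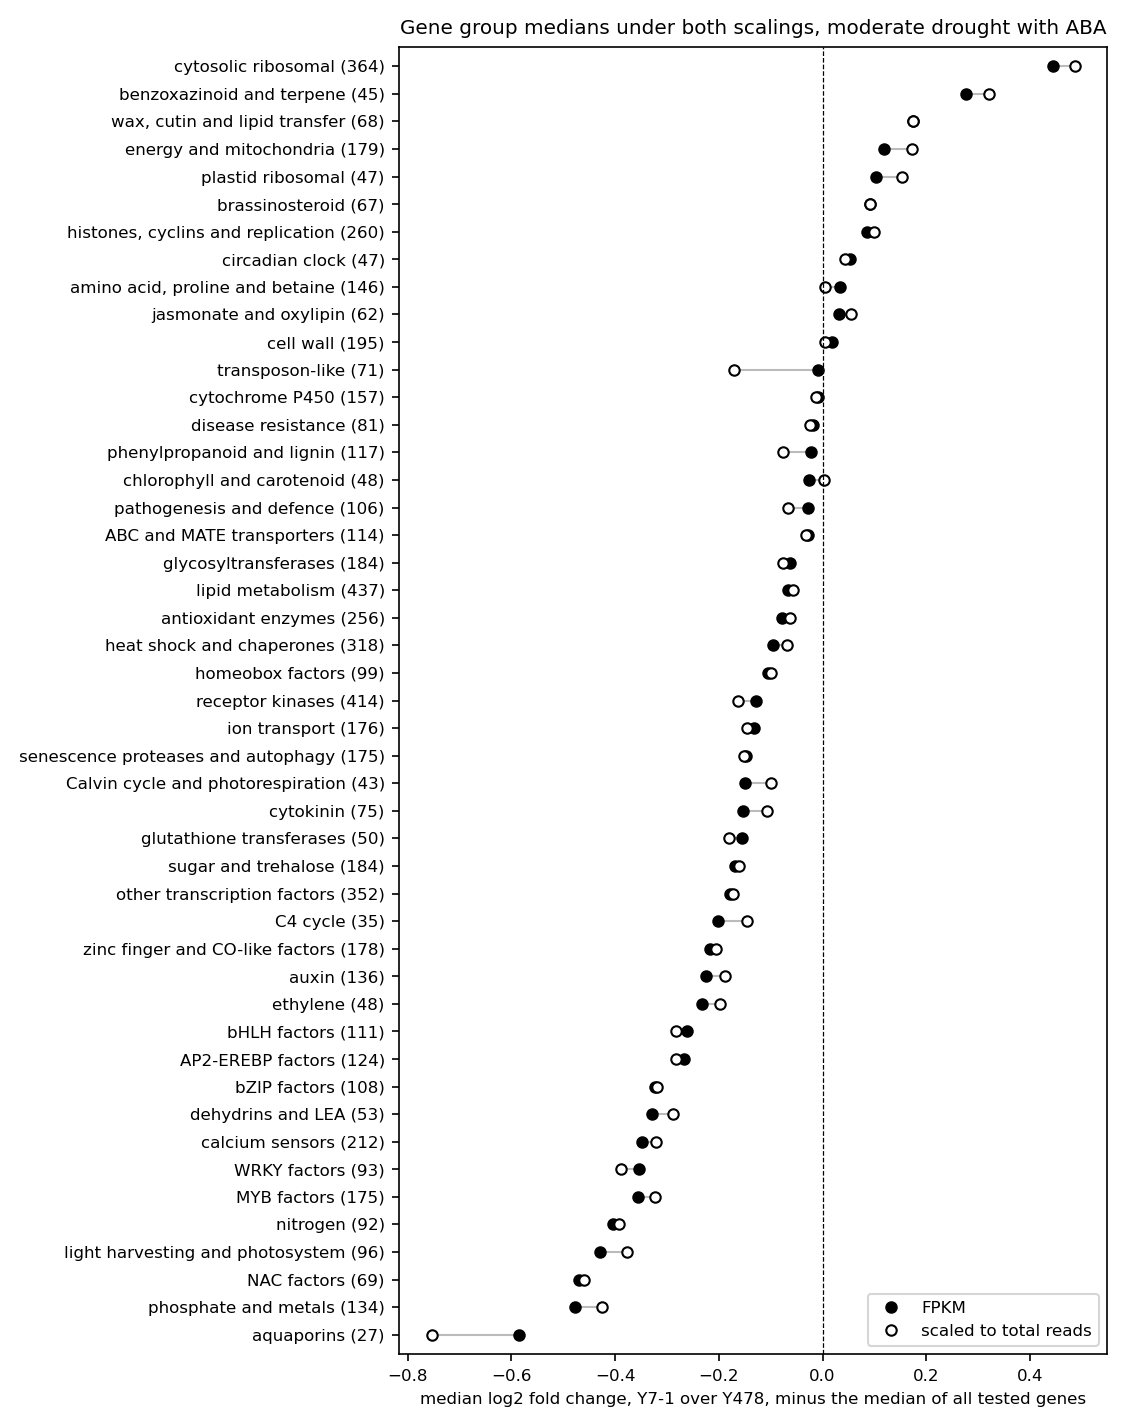
Median log2 fold change (Y7-1 over Y478, moderate drought with ABA) of each gene group, as fitted on FPKM (filled) and after scaling to total reads (open), each drawn as the difference from the median of all 23978 tested genes in the same fit, which was 0 and 0.20. Cytosolic ribosomal proteins lie highest of the groups of over 100 genes and aquaporins are among the lowest in both fits.

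Transcription factors were more often lower than higher in every family named here, also where FPKM was scaled to total reads, except where said. MYB factors counted 8 higher and 29 lower of 175 (14 higher and 21 lower after scaling to total reads), NAC factors 2 higher and 14 lower of 69 (2 higher and 10 lower), WRKY factors 7 higher and 18 lower of 93 (8 higher and 16 lower) and bZIP factors 5 higher and 20 lower of 108 (5 higher and 13 lower). AP2-EREBP factors counted 7 higher and 19 lower of 124 (8 higher and 16 lower) and other families 17 higher and 44 lower of 352 (29 higher and 30 lower). The direction turned in bHLH factors, with 6 higher and 18 lower of 111 (13 higher and 12 lower after scaling to total reads), and in homeobox factors, with 9 higher and 14 lower of 99 (15 higher and 10 lower). Their medians after that scaling, -0.08 and 0.10, were still below the 0.20 of all genes. Zinc finger and CO-like factors counted 10 higher and 27 lower of 178 (16 higher and 17 lower). The 8 higher MYB factors became 3 without Y7-1 replicate 1, 5 without Y7-1 replicate 2, 5 without Y7-1 replicate 3, 3 without Y478 replicate 1 and 3 without Y478 replicate 3, the 10 higher zinc finger factors 6 without Y7-1 replicate 2, 6 without Y478 replicate 1 and 6 without Y478 replicate 3 and the 17 higher of other families 10 without Y7-1 replicate 3, 11 without Y478 replicate 1 and 10 without Y478 replicate 3. The 14 lower NAC factors became 9 without Y7-1 replicate 2, 8 without Y7-1 replicate 3 and 7 without Y478 replicate 3, the 20 bZIP factors 13 without Y478 replicate 1 and the 19 AP2-EREBP factors 12 without Y478 replicate 1.

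MYB-related 17 (Zm00001d044409) had 4.93, 4.91 and 4.8 FPKM in Y7-1, against 142, 132 and 97 FPKM in Y478 (log2 fold change -4.51, SE 0.62, adjusted p = 0.000268). *bHLH152* (Zm00001d016873) had 2.43, 2.21 and 2.45 FPKM in Y7-1, against 44.4, 51.5 and 56.1 FPKM in Y478 (log2 fold change -4.15, SE 0.53, adjusted p = 0.000164), and *WRKY68* (Zm00001d011133) had 2.55, 4.05 and 5.26 FPKM in Y7-1, against 86.8, 45.2 and 80.9 FPKM in Y478 (log2 fold change -4.00, SE 0.71, adjusted p = 0.000944). Among the same families, *WRKY75* (Zm00001d029564) was higher with 15.4, 16.9 and 14.5 FPKM in Y7-1, against 3.73, 1.43 and 2.29 FPKM in Y478 (log2 fold change 2.50, SE 0.58, adjusted p = 0.00444). *NAC49* (Zm00001d034601), of a family that acts in drought and senescence, had 44.5, 40.8 and 35.1 FPKM in Y7-1, against 252, 118 and 153 FPKM in Y478 (log2 fold change -2.04, SE 0.43, adjusted p = 0.00272). A PIF4-like bHLH factor (Zm00001d013130), which in *Arabidopsis* promotes growth in shade and warmth, had 30.2, 37.7 and 33.7 FPKM in Y7-1, against 7.78, 6.36 and 5.12 FPKM in Y478 (log2 fold change 2.32, SE 0.55, adjusted p = 0.0052), and an HY5-like bZIP factor (Zm00001d025589), which in *Arabidopsis* acts against it, had 0.0365, 0 and 0 FPKM in Y7-1, against 7.33, 6.76 and 7.3 FPKM in Y478 (log2 fold change -3.90, SE 1.02, adjusted p = 0.00908). The homeobox gene *REVOLUTA* (Zm00001d049529), which shapes the upper leaf side and the vessels, had 14.4, 19.2 and 19.5 FPKM in Y7-1, against 0.0675, 2.37 and 0.535 FPKM in Y478 (log2 fold change 3.92, SE 0.89, adjusted p = 0.00396). *AGL16* (Zm00001d050897), a MADS-box gene, had 6.62, 6.48 and 8.58 FPKM in Y7-1, against 0.029, 0.169 and 0.229 FPKM in Y478 (log2 fold change 3.59, SE 0.66, adjusted p = 0.00113).

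Clock genes were called at 12.8%, against 18% of all genes, with 2 higher and 4 lower of 47 (3 higher and 2 lower after scaling to total reads). Early flowering 3 (Zm00001d044232), of the evening complex, had 7.48, 9.43 and 12.1 FPKM in Y7-1, against 25.6, 21.8 and 27.8 FPKM in Y478 (log2 fold change -1.35, SE 0.18, adjusted p = 0.000223), and *REVEILLE 6* (Zm00001d036632) had 9.6, 7.32 and 8.21 FPKM in Y7-1, against 30.9, 18.4 and 24.1 FPKM in Y478 (log2 fold change -1.47, SE 0.21, adjusted p = 0.000299). *REVEILLE 8* (Zm00001d023295), a MYB factor of the clock, had 6.88, 11.6 and 11.8 FPKM in Y7-1 and no reads in Y478 (at least 48.6-fold higher, adjusted p = 0.00047). By the study's methods, tissue was sampled at 1 fixed hour of the morning.

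Among genes of growth hormones other than gibberellin, auxin genes counted more often as lower: 4 of 136 (2.94%) were higher in Y7-1 and 22 (16.2%) lower (10 higher and 17 lower after scaling to total reads). *SAUR32* (Zm00001d014774), of a family that answers auxin quickly, had 1.95, 2.24 and 1.06 FPKM in Y7-1, against 12.5, 5.97 and 10.4 FPKM in Y478 (log2 fold change -2.15, SE 0.31, adjusted p = 0.000322). The auxin carrier *PIN2* of the table (Zm00001d018024) had 6.14, 6.67 and 6.74 FPKM in Y7-1, against 2.04, 1.35 and 0.429 FPKM in Y478 (log2 fold change 2.10, SE 0.53, adjusted p = 0.00728). Cytokinin genes counted 3 higher and 6 lower of 75 (5 higher and 4 lower after scaling to total reads). A phosphoribohydrolase that activates cytokinin (Zm00001d038862) had 13, 17.2 and 18.1 FPKM in Y7-1, against 138, 86.9 and 139.5 FPKM in Y478 (log2 fold change -2.86, SE 0.46, adjusted p = 0.000528), and cytokinin response regulator 1 (Zm00001d001865) had 7.38, 7.78 and 0.595 FPKM in Y7-1 and no reads in Y478 (at least 69.5-fold higher, adjusted p = 0.00282). Ethylene genes counted 2 higher and 7 lower of 48 (4 higher and 5 lower after scaling to total reads). ACC oxidase 2 (Zm00001d020686), the last step of ethylene synthesis, had 49.7, 31.2 and 26 FPKM in Y7-1, against 169, 83.8 and 238 FPKM in Y478 (log2 fold change -2.11, SE 0.46, adjusted p = 0.003). Brassinosteroid and sterol genes counted 3 higher and 2 lower of 67 (6 higher and 1 lower), below the shares of all genes.

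Of ABC and MATE transporters, which export hormones and defence compounds, 4 of 114 (3.51%) were higher in Y7-1 and 20 (17.5%) lower (9 higher and 15 lower after scaling to total reads), and the 20 became 13 without Y478 replicate 3. *ABCG14* (Zm00001d024497) had 0.501, 0.105 and 0.050 FPKM in Y7-1, against 10.7, 5.0 and 8.63 FPKM in Y478 (log2 fold change -3.57, SE 0.65, adjusted p = 0.00108). DETOXIFICATION 40 (Zm00001d033061) was higher with 22.4, 19.3 and 25.9 FPKM in Y7-1, against 7.05, 7.46 and 7.89 FPKM in Y478 (log2 fold change 1.52, SE 0.37, adjusted p = 0.00565).

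Proteases and autophagy genes counted 11 higher and 22 lower of 175 (14 higher and 18 lower after scaling to total reads, and 7 higher without Y478 replicate 3). Markers of the ageing leaf counted 5 higher and 6 lower of 46 (5 higher and 4 lower after scaling to total reads), with a summed level of 1513 to 1537 FPKM in Y7-1 and 1110 to 1538 FPKM in Y478. Senescence enhanced 2a (Zm00001d011174), a protease gene that rises in ageing maize leaves, had 14.9, 22.5 and 14.6 FPKM in Y7-1, against 3.19, 1.99 and 3.47 FPKM in Y478 (log2 fold change 2.40, SE 0.50, adjusted p = 0.00242). Cysteine protease 1 (Zm00001d016446) had 349.8, 379.5 and 333 FPKM in Y7-1, against 135, 91.8 and 113 FPKM in Y478 (log2 fold change 1.66, SE 0.45, adjusted p = 0.0111), while senescence associated gene 20 (Zm00001d022569) had 38.6, 60.8 and 45.8 FPKM in Y7-1, against 247, 164 and 299 FPKM in Y478 (log2 fold change -2.26, SE 0.54, adjusted p = 0.0052). Cystatin 2 (Zm00001d012561), which blocks such proteases, was higher with 355, 94.6 and 48.2 FPKM in Y7-1, against 15, 15.3 and 10.1 FPKM in Y478 (log2 fold change 3.10, SE 0.56, adjusted p = 0.00106). An aspartyl protease (Zm00001d051779) was lower with 1.05, 1.77 and 0.188 FPKM in Y7-1, against 41.3, 46.7 and 67 FPKM in Y478 (log2 fold change -5.25, SE 0.71, adjusted p = 0.00025). Markers of the epidermis and guard cells counted 2 higher and 4 lower of 35, a direction that turned after scaling to total reads (6 higher and 3 lower), and overlapped in their sum. Of the 35, 22 were above 0, with a median of 0.20 (0.43 after scaling to total reads). The potassium channel and the actin-binding protein that follow are among the 4 lower ones and do not stand for the list. The KAT1-like potassium channel 7 (Zm00001d016160), through which guard cells take up potassium to open stomata, had 6.62, 8.42 and 4.43 FPKM in Y7-1, against 15.1, 24 and 26.5 FPKM in Y478 (log2 fold change -1.68, SE 0.43, adjusted p = 0.00748). An actin-binding protein of stomatal closure (Zm00001d012559) had 8.85, 5.9 and 8.51 FPKM in Y7-1, against 59.3, 38 and 48.5 FPKM in Y478 (log2 fold change -2.57, SE 0.39, adjusted p = 0.000468). Transposon-like genes counted 6 higher and 5 lower of 71 (8 higher and 4 lower after scaling to total reads), and markers of roots 0 higher and 1 lower of 11 (1 higher and 0 lower), with a sum of 335 to 451 FPKM in Y7-1 and 528 to 754 FPKM in Y478. Markers of xylem counted 1 higher and 0 lower of 7 (1 higher and 0 lower).

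Some of the largest differences were between reads and none. Taking genes with 1 FPKM or more in all 3 plants of 1 line and no reads in the 3 of the other, 163 genes were read only in Y7-1 and 83 only in Y478, on all 10 chromosomes. Their median level was 4.82 FPKM in the first set and 3.76 FPKM in the second. A nodulin-related protein (Zm00001d008397, chromosome 8 from 7232820 to 7233317) had 1011, 1065 and 792 FPKM in Y7-1 and no reads in Y478 (at least 8069-fold higher, adjusted p = 0.00694, where the floor is 3 reads over the group). It had reads in 6 of the 9 other Y7-1 libraries and in 0 of the 9 other Y478 libraries. Its call was lost with limma-voom (adjusted p = 0.28) and with limma-voom on the FPKM library sizes (adjusted p = 0.316), and over its 19 alternatives the adjusted p ranged from 6.68e-06 to 0.316. *Erwinia* induced protein 2 (Zm00001d051803, chromosome 4 from 170031931 to 170032329) had 60.3, 38.7 and 39.3 FPKM (at least 314-fold higher, adjusted p = 0.000254) and reads in 8 and 0 of the other libraries of the lines. In the opposite direction, a chlorophyllide a oxygenase model (Zm00001d004531, chromosome 2 from 116800854 to 116802446), of the enzyme that makes chlorophyll b, had 80.5, 59.8 and 62.1 FPKM in Y478 (at least 1071-fold lower, adjusted p = 0.000522). Reads of it were in 9 of 9 other Y478 libraries and in 1 of 9 other Y7-1 libraries, which was the library that goes against its label. The sum of 3 models of this enzyme was 150.2, 172 and 189 FPKM in Y7-1, against 272, 255 and 180.0 FPKM in Y478, so that the lines overlapped. The 9 other libraries of each line come from the other treatments. Those of Y7-1 include the library that goes against its label and reads like Y478. Counts over all 9 of Y7-1 are therefore not comparable with those over all 9 of Y478. Of the 163 genes, 6 had reads in all 9 of Y7-1 and 87 in at least 8, while 115 had none in any of the 9 of Y478. Of the 83 genes, 35 had no reads in at least 8 of the 9 other Y7-1 libraries and 0 had none in all 9, while 74 had reads in all 9 of Y478.

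Other large changes were a translation factor of the SUI1 type (Zm00001d035710) with 64.2, 133 and 73.3 FPKM in Y7-1, against 0, 0 and 0.144 FPKM in Y478 (log2 fold change 7.31, SE 1.28, adjusted p = 0.000829) and annexin D8 (Zm00001d039739), a calcium-dependent membrane protein, with 63, 103 and 54 FPKM in Y7-1, against 0, 0.111 and 0 FPKM in Y478 (log2 fold change 7.05, SE 1.27, adjusted p = 0.00104). A model of a splicing factor U2AF subunit (Zm00001d009570) had 34.8, 36.8 and 34.6 FPKM in Y7-1, against 0, 0.191 and 0 FPKM in Y478 (log2 fold change 6.01, SE 1.40, adjusted p = 0.00485). On the lower side, actin-depolymerizing factor 10 (Zm00001d034643), which cuts actin filaments, had 0.476, 0.0644 and 0.306 FPKM in Y7-1, against 158, 68.7 and 135 FPKM in Y478 (log2 fold change -7.23, SE 1.14, adjusted p = 0.000507). A gene described as EGG APPARATUS-1 (Zm00001d022089) had 0, 0 and 0.169 FPKM in Y7-1, against 111, 142 and 144 FPKM in Y478 (log2 fold change -7.90, SE 1.20, adjusted p = 0.000459). DEGs were spread over the genome: 15.1% of tested genes were called on chromosome 9 and 20.7% on chromosome 7, the lowest and the highest of 10, and in 216 windows of 10 Mb the share ran from 3.7% to 37.5% with a median of 17.8%.

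The same lines were also compared in the other treatments, on libraries not shared with this comparison. The tests share 1 estimate of spread per gene, so the lists of DEGs are not fully independent. Under control 2187 genes were DEGs between the lines (9.12%), and 1320 of them had the same direction under drought with ABA, against 8 of the opposite one. These 1320 are 30.6% of the drought with ABA DEGs and 60.4% of the control DEGs. Under control with ABA there were 3562 DEGs (14.9%), with 1932 in the same direction and 6 in the opposite one, 44.8% and 54.2% of the lists. Under moderate drought, without the library that goes against its label, there were 2270 (9.47%), with 1600 and 1, and the 1600 are 35.4% of the 4521 drought with ABA DEGs of that fit and 70.5% of the 2270. Group counts follow for control, control with ABA and moderate drought without that library, in this order. Of 27 aquaporins 1, 0 and 1 were higher and 6, 9 and 6 lower. Of 212 calcium sensors 7, 8 and 6 were higher and 20, 25 and 26 lower. Of 364 ribosomal proteins of the cytosol 11, 41 and 20 were higher and 7, 12 and 9 lower. Over both directions together, they did not exceed the share of all genes in any of these treatments. Of 35 C4 genes 1, 2 and 1 were higher and 6, 6 and 4 lower. The shares of all genes above, 9.12%, 14.9% and 9.47%, hold both directions. That more genes pass in 1 treatment does not show that the lines differ more there.

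**Figure D4:**
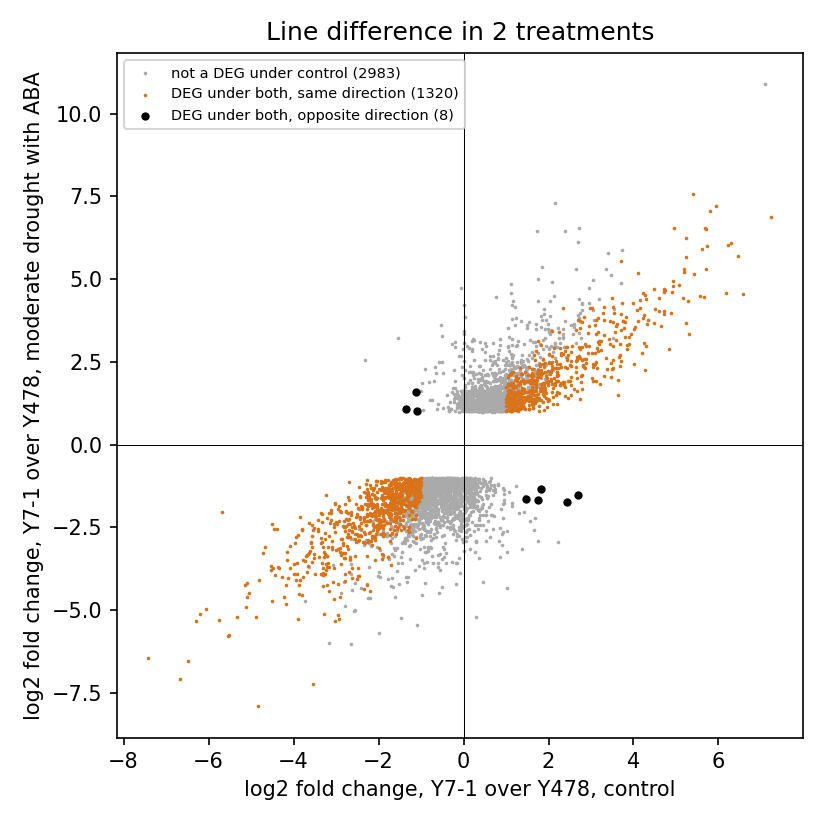
Log2 fold change of Y7-1 over Y478 under moderate drought with ABA (y axis) against that under control (x axis) for the 4311 DEGs under moderate drought with ABA, 1 point per gene, from separate plants. Orange points are the 1320 that were DEGs in the same direction under control, black points the 8 of opposite direction and grey points the rest.

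Whether the line difference itself changed with treatment was tested by interaction. The line difference under drought with ABA minus that under control passed for 12 genes (0.05%), 4 above 0 and 8 below, and minus that under control with ABA for 7 (0.0292%), 4 above and 3 below. Minus that under moderate drought it passed for 0 genes by limma (0.0%), where 1425 had an unadjusted p under 0.05 with the same minimum change, and 0 by limma-voom. Without the library that goes against its label these counts were 41 (0.171%), 45 (0.188%) and 0. Without 1 library of this comparison at a time, the first count ran from 2 to 28, the second from 0 to 38 and the third stayed at 0. The median standard error of an interaction was 0.44, against 0.31 for the line difference. A histidine-containing phosphotransfer protein 4 (Zm00001d043505), of the relay of the cytokinin signal, had 32.2, 11.6 and 25 FPKM in Y7-1, against 80, 39.4 and 71.3 FPKM in Y478 under drought with ABA (log2 fold change -1.50, SE 0.52, adjusted p = 0.0391). Under control it had 42.5, 54.2 and 144 FPKM in Y7-1, against 5.57, 8.3 and 23.3 FPKM in Y478 (log2 fold change 2.69, adjusted p = 0.00285), a difference between the treatments of -4.19 (adjusted p = 0.0424). A cytochrome b561 protein (Zm00001d021016), which passes electrons across membranes, had 3.05, 5.39 and 3.66 FPKM in Y7-1, against 0.949, 0.925 and 1.08 FPKM in Y478 under drought with ABA (log2 fold change 1.58, SE 0.34, adjusted p = 0.00263). Under control it had 0.331, 0.216 and 0.378 FPKM in Y7-1, against 1.23, 1.28 and 1.2 FPKM in Y478 (log2 fold change -1.11, adjusted p = 0.0369), and the interaction was 2.69 (adjusted p = 0.0424). The call of the phosphotransfer protein under drought with ABA was lost with no filter (adjusted p = 0.0554), without Y7-1 replicate 2 (adjusted p = 0.181), without Y7-1 replicate 3 (adjusted p = 0.0619), without Y478 replicate 1 (adjusted p = 0.128), without Y478 replicate 3 (adjusted p = 0.113) and with total-read scaling (adjusted p = 0.0638), and over its 19 alternatives the adjusted p ranged from 0.0104 to 0.181. A 3-ketoacyl-CoA synthase (Zm00001d037328), which lengthens fatty acids for wax, had 2.91, 3.79 and 2.35 FPKM in Y7-1 and no reads in Y478 (at least 56.3-fold higher, adjusted p = 2.41e-05). Under control with ABA it had 0.0523, 0 and 0.0665 FPKM in Y7-1, against 0, 0 and 0 FPKM in Y478, an interaction of 2.69 (adjusted p = 0.0139), and against control the interaction was 2.30 (adjusted p = 0.0223). A metal tolerance protein 10 (Zm00001d040002), of carriers of manganese and other metals, had 21.1, 26.2 and 19.4 FPKM in Y7-1, against 79.1, 56.1 and 120.4 FPKM in Y478 under drought with ABA (log2 fold change -1.86, SE 0.30, adjusted p = 0.00054). Its values under control with ABA were 37.2, 36.2 and 35.8 FPKM in Y7-1, against 25.8, 16.9 and 29.1 FPKM in Y478, an interaction of -2.49 (adjusted p = 0.0403). None of the interaction calls named here held in every alternative. Of 18 alternatives, the phosphotransfer protein kept its interaction in 11 (adjusted p from 0.00454 to 0.165), the cytochrome in 10 (0.00231 to 0.189), the synthase in 14 against control with ABA (3.96e-05 to 0.344) and in 11 against control (0.000714 to 0.371), and the metal tolerance protein in 10 (0.00213 to 0.145). Each was lost with limma-voom and without Y7-1 replicate 2. The phosphotransfer protein, the cytochrome, the metal tolerance protein and the synthase against control were also lost without Y7-1 replicate 3, Y478 replicate 1 or Y478 replicate 3, the metal tolerance protein without Y7-1 replicate 1 and the cytochrome without Y478 replicate 2.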

How the data were processed

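RNA-seq was made from leaves of 3 plants of each line in each of 4 treatments. The authors deposited FPKM values per gene, and the submitters' processing notes name HISAT2 2.0.5. How multi-mapped reads were counted, and the genome build of the coordinates, are not given in the sources used here. Values were tested as log2(FPKM + 0.5) in limma 3.58.1 (R 4.3.3) with 8 group means over 24 libraries and trended moderation, p-values were adjusted by Benjamini-Hochberg over 23978 genes, and the fit was tested on simulated data. Whole reads were recovered from FPKM and gene length within 0.05 of a whole number, for all values of every library, and served limma-voom and the scaling to total reads. A read of a 1 kb gene was worth 0.0502 to 0.0544 FPKM in Y7-1 and 0.0581 to 0.0596 FPKM in Y478. Folds against a line without reads use a floor of 3 reads over its 3 libraries and cover counting error only. Named genes were the *PMP3* family, those with the largest changes, the most abundant ones, up to 3 per direction in each gene group, genes read in 1 line and interactions, of which those that kept their call in every alternative were preferred after values were seen. Those with the largest changes and those of the gene groups were taken from DEGs without overlap of the 3 and 3 libraries. Families for summed levels were also chosen after values were seen. The members and gene groups were chosen with earlier results of these data known.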

Additional observations from a re-analysis of the deposited data

Results flagged for a closer look

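In 4 named genes the difference between Y7-1 and Y478 under drought with ABA departed from that in another treatment, by limma's interaction test with Benjamini-Hochberg adjustment. Relative to control, the interaction was -4.19 on the log2 scale in the phosphotransfer protein Zm00001d043505, 2.69 in the cytochrome b561 protein Zm00001d021016 and 2.30 in the 3-ketoacyl-CoA synthase Zm00001d037328. Relative to control with ABA it was 2.69 in Zm00001d037328 and -2.49 in the metal tolerance protein Zm00001d040002. None of these calls held in every alternative, and each was lost with limma-voom and without Y7-1 replicate 2.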

How the results depend on the processing

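Of 319 DEGs that the rule for named genes allowed, 206 kept their call in all of 19 alternatives. Such genes were preferred, so the 117 of 127 named ones that kept it follow from that choice. None of the 127 turned round. Of the alternatives, 17 were chosen at the outset, and both scalings by library size (total reads, and limma-voom with the FPKM library sizes) were chosen after seeing the data. The count of genes higher in Y7-1 moved to 3214 with limma-voom and 2859 with scaling to total reads. Without 1 library at a time the DEGs ran from 3102 to 4167, those higher from 1315 to 1819 and those lower from 1787 to 2348. The change of Zm00001d024778 ran from -0.95 to -0.37 on the log2 scale. The interaction counts were unstable. Against control the 12 genes were 6 with a pseudocount of 0.1, 41 without the library that goes against its label, 677 with array weights, 1 with limma-voom and 4 with limma-voom on the FPKM library sizes, and from 2 to 28 without 1 library. Against control with ABA the 7 genes were 1 with a pseudocount of 0.1, 15 with no filter, 45 without that library, 866 with array weights, 0 with limma-voom and 0 with limma-voom on the FPKM library sizes, and from 0 to 38 without 1 library. Against moderate drought the count of 0 was 3 with a pseudocount of 1, 5 with no filter and 51 with array weights. Replicate numbers do not pair the plants (correlations of same-numbered libraries -0.05, 0.07 and -0.01), and with a replicate block the DEGs were 4292, 1867 higher and 2425 lower, the interactions 11, 6 and 0 (that of Zm00001d021016 was lost) and the change of Zm00001d024778 -0.62. Of 2128 counts of gene groups over the alternatives, 1812 stayed within 1.5 times. Depth limits genes near 0.5 FPKM, where few reads carry a value.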

Other observations

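The sum over *REVEILLE 8* models was 7.03, 11.7 and 12 FPKM in Y7-1, against 0, 0 and 0 FPKM in Y478, so no other model of that name was read in Y478.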
